A study of Mus musculus with 2 samples.

Results

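Wnt signalling in newborn skin was read from 36 genes, namely 12 Wnt ligands, 10 Frizzled receptors, the Lrp5 and Lrp6 co-receptors, 8 secreted antagonists and 4 genes that carry or report the signal (Axin2, Lef1, Tcf7 and Lgr5). They were found by their gene name among the non-control probes of an Agilent array that carries 28105 gene names, and all 36 were on the array, with 45 probes. The mice were of the strain C57BL/6N and were taken on postnatal day 0. The wild-type group was Pla2g4e+/+ and the knockout group Pla2g4e-/-, labelled as knocked out for the gene of cytosolic phospholipase A2 of group IVE. Each group was 1 array, hybridised with whole-skin RNA from 5 animals mixed in equal amounts. How the allele was made, and which part of the gene it removes, is not stated in the labels.

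Wnt proteins are secreted, lipid-modified ligands that bind a Frizzled receptor together with Lrp5 or Lrp6 and so keep beta-catenin from being destroyed. Beta-catenin then acts with the DNA-binding proteins Lef1 and Tcf7 on target genes such as Axin2, which feeds back to dampen the pathway. Dkk1, Dkk2 and Dkk4 act on the Lrp co-receptors, while Sfrp proteins and Wif1 bind the ligands themselves. In skin the pathway is needed to form hair follicles and, later, to drive the cells that build the hair shaft.

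The arrays had a median spot signal of 249 (wild type) and 241 (knockout). Signals are fluorescence intensities of single spots on a linear scale. A difference is knockout minus wild type in log2 signal, after each array was scaled to its 75th percentile. With 1 array per group no replicate check and no test could be made. The scanner software's own modelled error for a difference was 0.20 to 0.21 log2 for every member. Differences are set against 1.96 times that error, a size that leaves out the animals. Over 341 probes with 5 or more spots, the median SD of the difference between spots was 0.04 log2. A difference within the scanner's range can thus still exceed the spread between spots. The main Pla2g4e probe read 662 for the wild type and 320 for the knockout, a difference of -0.96 log2, so that the knockout still read 51.4% of the wild type after scaling and well above background. A second Pla2g4e probe read 10.6 and 11.7, and only the knockout value passed the background limit. The pools were unlike in sex: the Y-linked Eif2s3y read 5363 for the wild type and 6.35 for the knockout, and Xist was 3.87-fold higher in the knockout pool, so genotype, sex and place on the slide cannot be told apart in any value below.

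Of the 36 genes, 35 were well above background in both pools, as were 78.3% of all gene names on the array. The exception was Wnt3a, which read 10.1 for the wild type and 5.92 for the knockout and was not well above background in either. In the wild-type pool the 35 measured genes read between 143 and 19148, and 26 of them were brighter than the median measured gene. Probes differ in how they bind, so these signals do not rank the genes by RNA level.

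**Figure D1:**
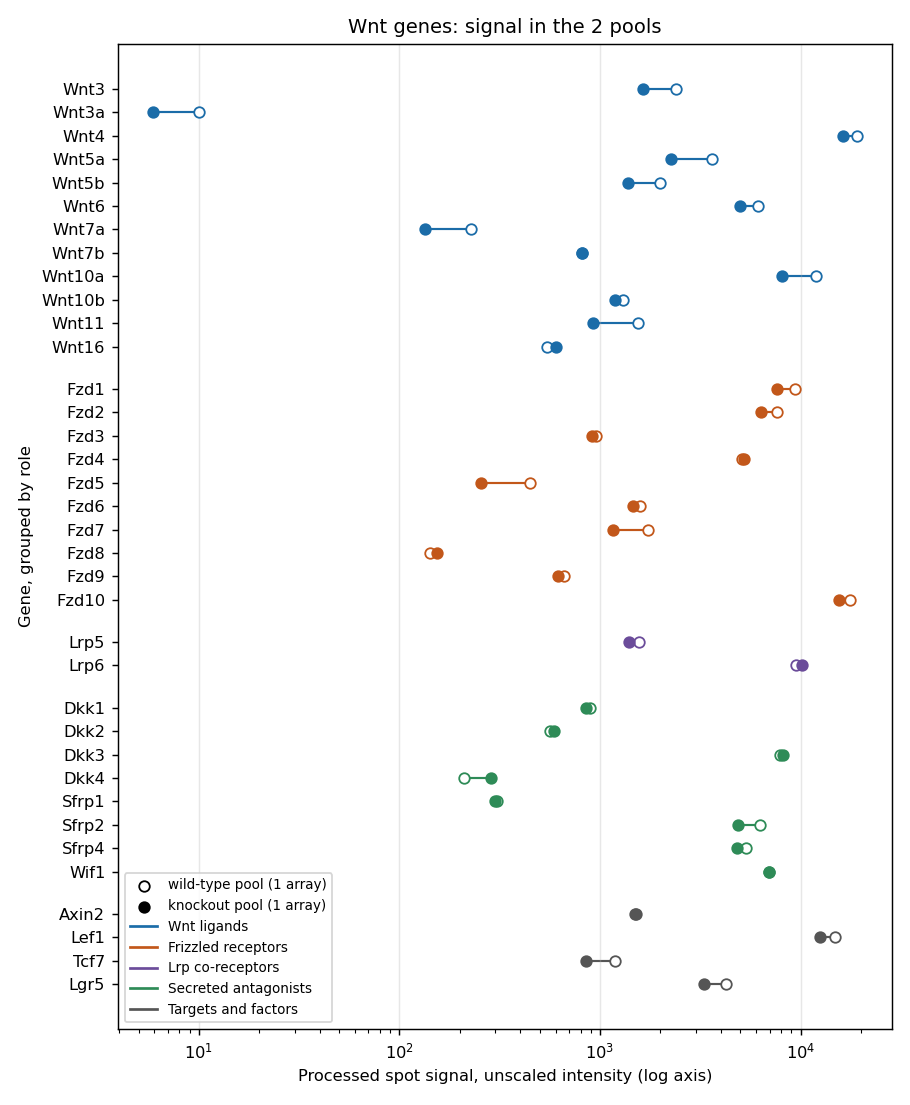
Processed spot signal (unscaled intensity, log axis) of the 36 Wnt genes, grouped by role; open circles are the wild-type pool and filled circles the knockout pool, 1 array each. Wnt3a alone lies near background, at 10.1 and 5.92, and most ligand pairs have the knockout point on the left.

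Of the 11 measured Wnt ligands among the members, 9 were below 0 in the knockout pool and 3 passed 1.5-fold, with a median of -0.43 log2. The 5 measured ligands outside the member list were all above 0, with a median of 0.10 log2, and none was 1.5-fold apart. The median of -0.43 thus holds for the listed ligands and not for all measured Wnt ligands. Most of the 5 were dim. Wnt2b read 27.3 for the wild type and 35.9 for the knockout, Wnt9b 43.9 and 44.2, and Wnt2 142 and 138. Wnt1 read 682 and 674, and Wnt9a 1092 and 1116. At a size of 1.5-fold, 4 of the 35 measured genes were lower in the knockout pool (11.4%, against 4.5% of the 22013 measured genes of the array) and 0 were higher (against 6.66% of all measured genes). The 4 were the ligands Wnt7a, Wnt11 and Wnt5a and the receptor Fzd5. In all, 22 of the 35 lay below 0, or 62.9% against 47.8% of all measured genes, with a median of -0.07 log2 against 0.01. Beyond 1.96 scanner errors, 8 were lower (22.9%, against 8.21% of all measured genes) and 1 was higher (against 11.2%); the other 26 lay within that range.

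The probes behind the 4 genes are shown because these differences rest on them. Each is 60 bases long, and its first 30 bases are printed from the array files. The position of the whole probe on mm9 stands beside it, and whether it lies in coding or untranslated sequence was not analysed here.
Wnt5a, chr14:29336664-29336723, plus strand: cctaacccagaggttaccagcctggttttg
Wnt7a, chr6:91314653-91314712, minus strand: cctcagcggtgggtcagtcagtgtctcaca
Wnt11, chr7:106001985-106002045, plus strand: gaaactgataggattaaaaataacctggca
Fzd5, chr1:64779479-64779538, minus strand: aatttcagtggcttccacaagaccttgtac
Fzd5, other probe, chr1:64781972-64782030, minus strand: acggggacccagtggctggcatctgctatg

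No ligand was at least 1.5-fold higher. Wnt7a, a ligand known for patterning the limb, read 227 for the wild type and 134 for the knockout. After scaling it was 1.59-fold lower, a difference of -0.67 log2. Its signal was below that of the median measured gene, and under normexp background correction, which draws dim signals together, the difference was -0.43 log2.

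Wnt11, which acts largely through routes that do not need beta-catenin, read 1546 and 921 in the wild-type and knockout pools. It was 1.58-fold lower in the knockout pool, at -0.66 log2. Under all settings that called at 1.5-fold Wnt11 stayed at least 1.5-fold lower, with values between -0.70 and -0.61. Wnt5a, the ligand most studied for signalling without beta-catenin, read 3618 and 2252. It was 1.51-fold lower, at -0.59 log2, only just past the size used, and its lowest and highest values over the settings were -0.64 and -0.56.

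Another 3 ligands were lower by less than 1.5-fold but by more than 1.96 scanner errors. Wnt10a, whose loss in people disturbs teeth, hair and other skin appendages, read 11934 and 8073, a difference of -0.47 log2. Wnt3, a ligand of the beta-catenin route, read 2387 and 1638, at -0.45 log2. Wnt5b, a close relative of Wnt5a, read 1979 and 1382, at -0.43 log2. With the 3 above, 6 of the 11 ligands were lower beyond 1.96 scanner errors, against 8.21% of all measured genes, and lay between -0.67 and -0.43. Each of the 6 had 1 probe, so none could be set against a second.

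The remaining 5 measured ligands of the member list differed by less than the scanner's range. Wnt6 read 6127 and 4965 (-0.21 log2), and Wnt4 read 19148 and 16295 (-0.14 log2), with a second Wnt4 probe at -0.35. Wnt10b, an early ligand of hair follicle formation, read 1295 and 1193 (-0.03 log2). Wnt7b read 810 and 812 (0.09 log2) and Wnt16 read 545 and 600.1 (0.23 log2), the only ligands of the member list above 0.

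Some ligand genes lie side by side in the genome. The probes of Wnt6 and Wnt10a lie 19172 bases apart on mm9 chromosome 1, and the genes stood at -0.21 and -0.47. Wnt3 (-0.45) has Wnt9b as its neighbour on chromosome 11, with probes 90156 bases apart, and Wnt9b read 43.9 and 44.2, at 0.10 log2. Wnt10b (-0.03) and Wnt1 (0.07) are neighbours on chromosome 15, with probes 21992 bases apart. No gap between neighbours was tested, and each value carries a scanner error of 0.20 to 0.26 log2.

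**Figure D2:**
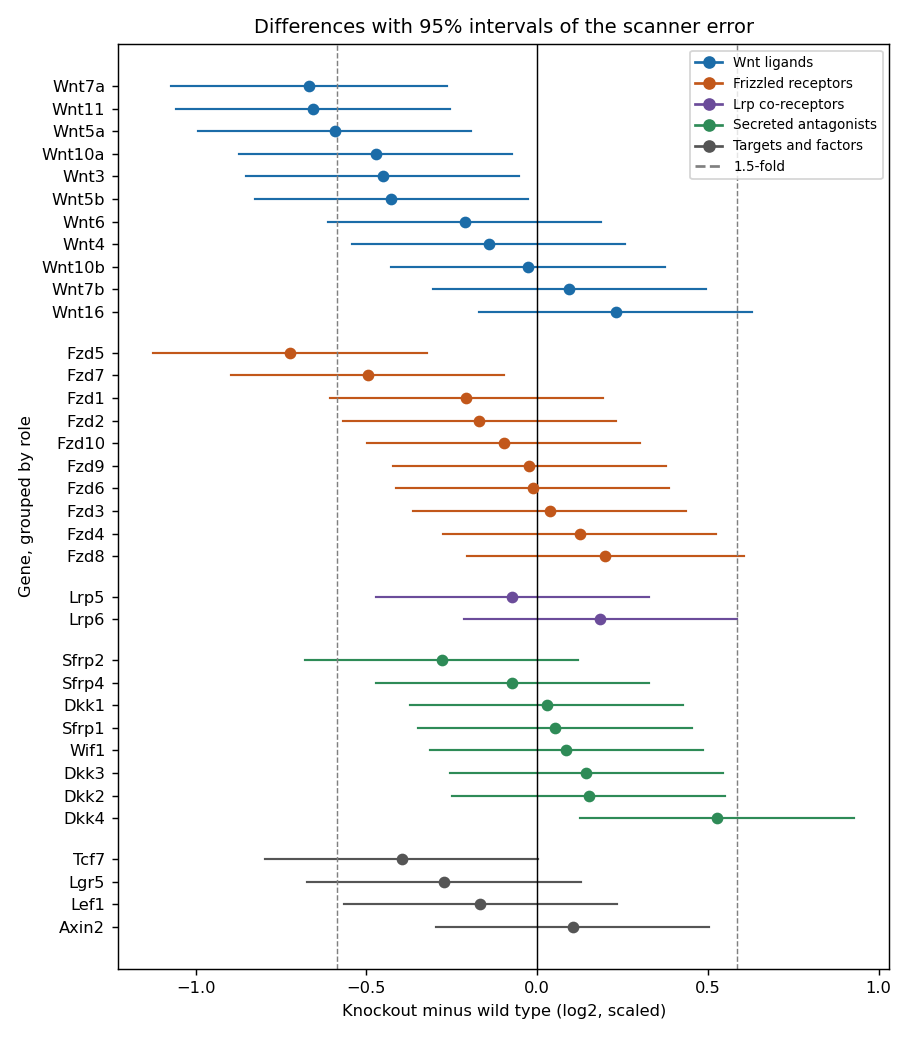
Difference of each of the 35 measured Wnt genes (knockout minus wild type, log2, scaled), sorted within role; bars are 1.96 scanner errors and dashed lines mark 1.5-fold. Of the 11 ligands, 6 have bars wholly below 0, while of the 8 secreted antagonists only Dkk4 has a bar clear of 0, on the higher side.

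Among the Frizzled receptors, Fzd5 and Fzd7 were lower by more than 1.96 scanner errors. Of 10 measured receptors, 7 were below 0, against 47.8% of all measured genes, with a median of -0.06 log2. At 1.5-fold 1 was lower and 0 were higher, against 4.5% and 6.66% of all measured genes. Fzd5 read 449 for the wild type and 255 for the knockout, a difference of -0.72 log2 or 1.65-fold, and 2.83% of all measured genes lay below it. Its second, dimmer probe read 79.3 and 60.1, at -0.31 log2, and the mean of both was -0.52, which is less than 1.5-fold. Fzd7 read 1740.4 and 1159 at its brighter probe (-0.50 log2), but 299 and 266 at its other probe (-0.07), so its difference rests on 1 probe.

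The other 8 receptors lay within 1.96 scanner errors. Fzd1 read 9385 and 7630.2 (-0.21 log2), and Fzd2 read 7589 and 6337 (-0.17), with its second probe at -0.16. Fzd10 read 17645 and 15474 (-0.10). Fzd9 stood at -0.02, Fzd6 at -0.01, Fzd3 at 0.04, Fzd4 at 0.12 and Fzd8 at 0.20. The sign of Fzd3 turned under median scaling and that of Fzd6 under normexp.

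The Lrp co-receptors, without which Wnt proteins do not stabilise beta-catenin, lay within 1.96 scanner errors. Lrp5 read 1565 and 1397 (-0.07 log2). Lrp6 read 9473 and 10111 (0.19 log2), and its second probe stood at 0.04.

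The secreted antagonists had no member at least 1.5-fold apart in either direction (6.66% of all measured genes were higher and 4.5% lower). Their median was 0.07 log2, and 6 of 8 were above 0, as were 11493 of the 22013 measured genes. Dkk4, a Dkk protein made in the epithelial buds of forming hair follicles, was highest. It read 211 for the wild type and 285 for the knockout, a difference of 0.53 log2 or 1.44-fold from a dim probe. Sfrp2, an antagonist of dermal cells, was lowest, at 6296 and 4869 (-0.28 log2).

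The other 6 antagonists spread narrowly around 0. Dkk2 stood at 0.15 log2, Dkk3 at 0.14, Wif1 at 0.09, Sfrp1 at 0.05, Dkk1 at 0.03 and Sfrp4 at -0.07. Wif1 read 6941 and 6915, Dkk3 read 7914 and 8207, and Sfrp4 read 5365 and 4791. The sign of Dkk1 turned under median scaling. The listed ligands and antagonists therefore had medians of -0.43 and 0.07 in the same pair of pools, and this gap was not tested. Outside the member list, the medians were 0.10 for 5 other measured ligands, most of them dim, and -0.08 for 8 other measured antagonists.

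**Figure D3:**
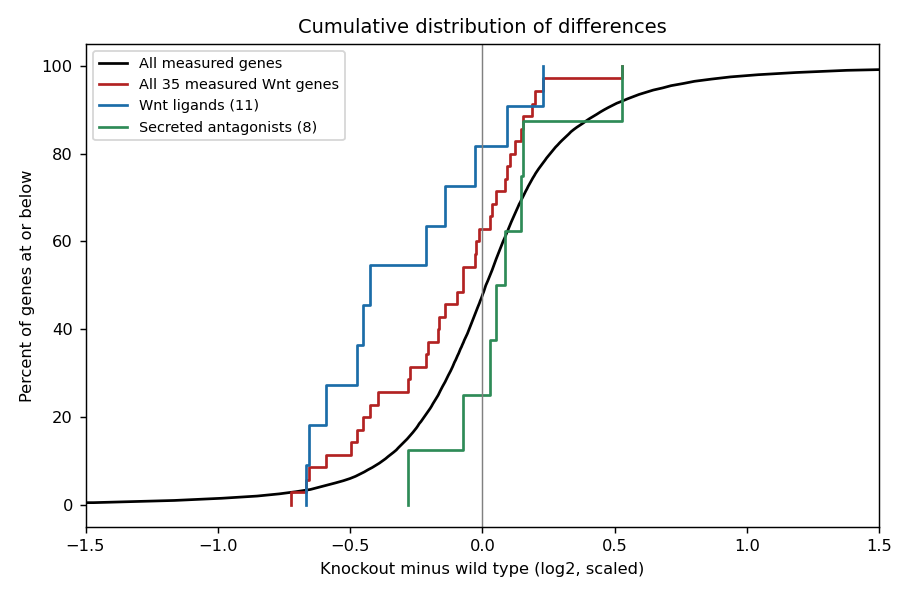
Cumulative percent of genes at or below each difference (knockout minus wild type, log2), for all 22013 measured genes, the 35 measured Wnt genes, the 11 ligands and the 8 secreted antagonists. The ligand line runs left of the line of all genes, with its median at -0.43 against 0.01. The antagonist line runs near or to the right of the line of all genes up to about its median of 0.07. Left out of the ligand line are 5 other measured ligands, most of them dim, with a median of 0.10.

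Of the 4 genes that carry or report the signal, 3 were below 0 and 0 were 1.5-fold apart, with a median of -0.22 log2. The shares of all measured genes were 47.8% below 0, 4.5% at least 1.5-fold lower and 6.66% higher. Axin2, the most used readout of beta-catenin signalling, read 1494 for the wild type and 1508 for the knockout. Its difference was 0.10 log2, and its second probe read 125 and 138, at 0.23 log2. Both probes thus lay above 0 and within the scanner's range.

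Lef1, the DNA-binding partner of beta-catenin in the cells that form the hair shaft, read 14883 and 12453 (-0.17 log2), with its second probe at -0.29. Tcf7, a relative of Lef1, read 1188 and 848 (-0.40 log2), with its second probe at -0.22. Lgr5, a target gene that is also an R-spondin receptor and marks follicle stem cells, read 4259 and 3309 (-0.27 log2). All 3 were below 0 by less than 1.5-fold and within 1.96 scanner errors. Over the 9 members with a pair of probes, both probes had the same sign in all 9, and the largest gap between them was 0.42 log2, that of Fzd7. How often probe pairs share a sign over all genes was not counted.

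Because several members are known targets of the pathway, the promoters of members were searched for the letters that Lef1 and Tcf7 bind. The letters searched were CTTTGAA and its variant that ends in T instead, CTTTGAT, with the further pair that has T in the place before the end, namely CTTTGTT along with the form CTTTGTA. Both strands were read, in RefSeq windows (GRCm38.p6) from 250 bases before to 50 bases after each start. Of the members, 22 had a window, and Wnt5a was not among them. At least 1 match stood in 6 of their 29 windows, or 20.7%, against 16.9% of all 32851 windows. Counted by gene, 6 of the 22 members (27.3%) had a match in any window, against 18.9% of all genes. Neither gap was tested. The median GC content was 66.7% in the members' windows and 52.7% in all windows. A match describes letters only.

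The matches are printed with their surroundings, 30 bases on the strand of the gene, to show where each lies. Capitals mark the matched letters.
Wnt11, chr7:98835050-98835079, plus strand: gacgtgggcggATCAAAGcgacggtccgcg
Wnt3, chr11:103774182-103774211, plus strand: cctcaagtggaCTTTGTTccaactattggg
Wnt5b, chr6:119449439-119449468, minus strand: agtaagtctctCTTTGATctgctccctgtc
Fzd7, chr1:59482006-59482035, plus strand: tccacagagaaAACAAAGcgcgctattgga
Lef1, chr3:131156136-131156165, plus strand: caacctcagaaTACAAAGtaggattgcatt
Dkk1, chr19:30549595-30549624, minus strand: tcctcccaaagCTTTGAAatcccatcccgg
Dkk1, chr19:30549576-30549605, minus strand: tcccatcccggCTTTGTTgtcttccctgag

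Whether a match goes with a difference was not tested. In the Wnt11 window with a match, the match began 51 bases before the start. It lay close to the letters TATAAA, which began 29 bases before the start. A further Wnt11 window had no match. TATAAA stood in 4 of the members' 29 windows, against 8.32% of all windows. Dkk1, with its matches, also had it, 54 bases before the start. Lef1 had its match in 1 of 4 windows and Wnt5b in 1 of 3. Fzd5, Wnt7a and Axin2 had none in theirs. The 250 bases before the start are shown for Wnt11, with its match in capitals, and for Fzd5 and Wnt7a, the other members at least 1.5-fold lower that had a window.
Wnt11, chr7:98834862-98835111, plus strand: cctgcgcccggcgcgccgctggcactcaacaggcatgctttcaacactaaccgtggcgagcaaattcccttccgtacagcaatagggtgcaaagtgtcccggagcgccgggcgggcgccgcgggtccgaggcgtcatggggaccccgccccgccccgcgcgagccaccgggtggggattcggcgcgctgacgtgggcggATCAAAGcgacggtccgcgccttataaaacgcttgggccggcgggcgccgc
Fzd5, chr1:64737751-64738000, minus strand: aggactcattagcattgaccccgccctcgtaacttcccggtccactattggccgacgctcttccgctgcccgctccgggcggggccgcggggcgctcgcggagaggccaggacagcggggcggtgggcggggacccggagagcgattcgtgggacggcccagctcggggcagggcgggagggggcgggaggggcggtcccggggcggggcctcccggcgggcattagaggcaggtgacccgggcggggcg
Wnt7a, chr6:91411354-91411603, minus strand: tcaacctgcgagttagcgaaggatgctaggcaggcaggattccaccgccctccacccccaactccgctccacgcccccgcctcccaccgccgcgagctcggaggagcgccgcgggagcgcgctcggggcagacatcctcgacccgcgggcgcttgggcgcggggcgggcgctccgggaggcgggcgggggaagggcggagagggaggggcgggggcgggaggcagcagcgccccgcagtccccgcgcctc
These stretches were rich in G and C, at 70.8% in Wnt11, 76.4% in Fzd5 and 77.6% in Wnt7a.

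Beyond the 36 genes, 92 other genes of Wnt signalling were drawn up in 9 lists, and 87 were measured. At 1.5-fold, 2 were higher in the knockout pool and 2 were lower, or 2.3% each way, against 6.66% higher and 4.5% lower of all measured genes. Their median was -0.02 log2, and 50 lay below 0, or 57.5% against 47.8% of all measured genes.

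Among R-spondins, which amplify Wnt signals through Lgr receptors, Rspo2 was lower, from 123 to 58.2 (-0.99 log2, 1.98-fold). The Rspo2 probe was dim, with a signal below that of the median measured gene. Rspo1 read 5917 and 4340.1 (-0.36) and Rspo3 read 3528 and 2942 (-0.17). Rspo4 read 21.5, well above background, for the wild type and 7.33, not so, for the knockout, and was at least 2.05-fold lower in the latter, counting the lowest signal well above background as the floor. Of their receptors, Lgr4 stood at 0.14, Lgr6 at 0.06 and Lgr5, a member, at -0.27, and of the ligases that remove Frizzled proteins, Znrf3 stood at 0.04 and Rnf43 at -0.16. All 5 lay within the scanner's range.

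Wls, the carrier that takes Wnt proteins to the cell surface, read 12210.3 and 8954 (-0.36 log2), within the scanner's range. Porcn, the enzyme that attaches the lipid to Wnt proteins, stood at 0.19 and Notum, which removes it, at 0.11. Of 5 other measured ligands, all were above 0 and none was 1.5-fold apart, from Wnt2 at 0.06 to Wnt2b at 0.49. Their median was 0.10 log2, against -0.43 for the 11 ligands of the member list. Most of the 5 were dim, and Wnt2b had a scanner error of 0.30 log2. Wnt8a and Wnt8b were not well above background in either pool.

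Among the other antagonists, Sost, an inhibitor that binds Lrp5 and Lrp6, read 17.6 for the wild type and 62.9 for the knockout. It was 3.80-fold higher (1.93 log2, scanner error 0.35), from a probe close to background. Kremen2, a partner of some Dkk proteins, read 3550.1 and 2257 (-0.56 log2), and Sostdc1, an inhibitor of Wnt and BMP signals in skin appendages, read 9466 and 6555 (-0.44). Both were lower by more than 1.96 scanner errors and by less than 1.5-fold. Draxin was not well above background in either pool. Among the other receptors, none was 1.5-fold apart. Gpr124, named Adgra2 on the array, was lowest at -0.46, followed by Ror1, a receptor of Wnt5a, at -0.43. Both were lower by more than 1.96 scanner errors, as were 8.21% of all measured genes. Ror1 was dim, at 104 and 72.6. Lrp4 was highest at 0.09.

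The cytoplasmic and planar polarity genes lay within 1.96 scanner errors. Of all measured genes, 8.21% were lower and 11.2% higher beyond that size. Of 20 cytoplasmic components 0 were 1.5-fold apart, against 4.5% lower and 6.66% higher of all measured genes. They ran from Dvl1 (-0.23) to Dvl3 (0.15), both adaptors of Frizzled. Ctnnb1, which encodes beta-catenin itself, read 25796 and 22179, at -0.13 log2. Of 12 planar polarity genes 0 were 1.5-fold apart, against the same shares, from Intu (-0.30) to Fuz (0.26).

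Of 13 nuclear components, Sox17 was the 1 at least 1.5-fold apart, at 750.3 and 1429 (1.02 log2). Sox17 is a transcription factor that can restrain beta-catenin and is also made by endothelium. Markers of endothelium were higher in the knockout pool, with all 6 above 0. At 1.5-fold 3 of 6 were higher, against 6.66% of all measured genes. The endothelium markers' scaled signals summed to 3.74 for the wild type and 4.84 for the knockout, and their part in the Sox17 difference was not tested. Cby1, which holds back beta-catenin, was the lowest nuclear gene, at -0.27.

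Among 13 other measured targets, Msx2, a factor of the hair matrix, was lower, from 3693 to 1657 (-1.06 log2, 2.09-fold), and Ccnd1, which encodes cyclin D1, stood at -0.48. Bmp4 stood at -0.37 and Nkd1, a feedback inhibitor, at -0.26. Sp5, another direct target, stood at -0.08 and Myc at 0.21. Bambi was not well above background in either pool.

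**Figure D4:**
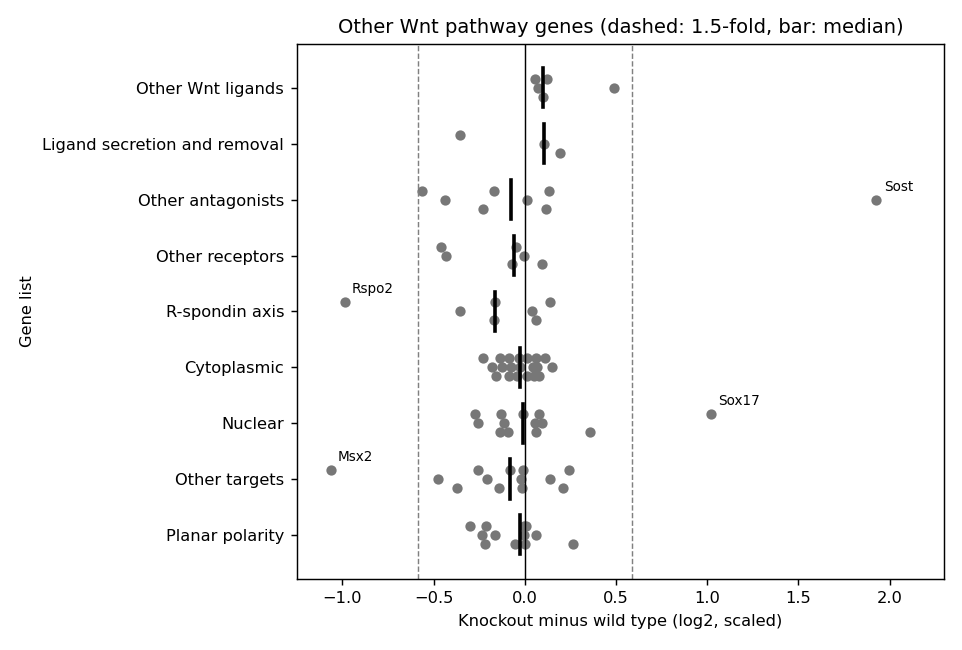
Differences (knockout minus wild type, log2, scaled) of 87 other Wnt pathway genes by list; each point is 1 gene, black bars are list medians and dashed lines mark 1.5-fold. Only Sost and Sox17 lie past 1.5-fold on the higher side, and Rspo2 and Msx2 on the lower side.

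Many Wnt genes are made in hair follicles, and the follicle's own markers are given here for the same pools. For the marker lists here and below, the shares of all measured genes were 47.8% below 0, 4.5% at least 1.5-fold lower and 6.66% higher. All 10 hair shaft keratins were at least 1.5-fold lower, with a median of -1.27 log2, and their scaled signals summed to 48.2 for the wild type and 23.0 for the knockout. All 7 markers of the hair matrix, the dividing cells at the base of the follicle, were below 0, and 3 were at least 1.5-fold lower, with a median of -0.49. Their sum was 17.0 against 14.6. The brightest marker, Gata3, made up most of each sum but little of the gap between them. Shh, a matrix signal, stood at -0.49, Hoxc13 at -0.78 and Gata3 at -0.05. Msx2, 1 of the 3, is also counted among the other Wnt targets above.

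Markers of the dermal papilla, the dermal cells that instruct the follicle, were spread more widely. They include Prdm1, which is also counted among the other Wnt targets. Of 13, 9 were below 0 and 2 were at least 1.5-fold lower, with a median of -0.14, sums of 17.3 and 15.5, and values from -0.71 (Inhba) to 0.39 (Fgf10). Outer root sheath markers had 6 of 7 below 0 and 1 at least 1.5-fold lower (Krt75, -0.79), with a median of -0.21 and sums of 84.4 and 81.1. No marker of these 4 follicle lists was at background in either pool.

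Outside the follicle, 1 of 7 measured markers of the interfollicular epidermis was at least 1.5-fold apart (Ivl, 0.63), with a median of 0.11 and sums of 494 and 513. Dermal fibroblast markers had 0 of 9 that far apart, a median of 0.04 and sums of 329 and 345. Melanocyte markers, which also lie largely in follicles, had a median of -0.26, with all 6 below 0, 1 at least 1.5-fold lower and sums of 35.6 and 30.1. White adipocyte markers had 3 of 6 at least 1.5-fold lower (median -0.42), while skeletal muscle (0.39), erythroid (0.57) and immune markers (0.41) had medians above 0. The ligands' scaled signals summed to 22.2 for the wild type and 18.3 for the knockout, and the antagonists' to 12.8 in both pools. All these sums follow the brightest probes and are not RNA amounts. Wnt4 and Wnt10a gave 8.58 and 5.35 of the ligands' 22.2 for the wild type. In whole skin, fewer cells of a type and less RNA per cell cannot be told apart, and the part of follicle content in the ligand differences was not tested.

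**Figure D5:**
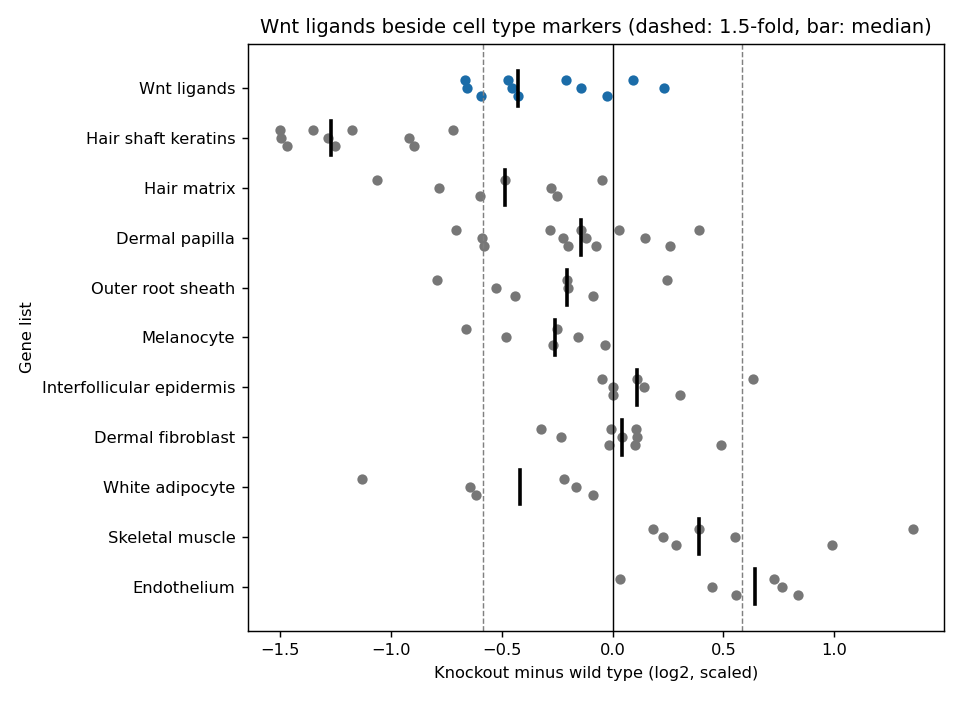
Differences (knockout minus wild type, log2, scaled) of the 11 measured Wnt ligands beside markers of 10 cell types; each point is 1 gene, black bars are list medians and dashed lines mark 1.5-fold. The median of -0.43 for these 11 ligands lies nearest to that of white adipocytes (-0.42) and next to that of the hair matrix (-0.49). It lies above that of the hair shaft keratins (-1.27) and below those of interfollicular epidermis (0.11) and dermal fibroblasts (0.04). The 5 other measured ligands, most of them dim, with a median of 0.10, are not among the 11.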

How the data were processed

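Skin RNA was labelled with Cy3 and hybridised to a 1-colour Agilent array, per the labels. The submitters' processing notes name Agilent Feature Extraction 11.5.1.1 as the scanner software. The deposited files give each spot's intensity, with background subtracted and spatial trends removed, and positions on mm9, per the file headers. The deposited value table holds a ratio, which equalled that intensity divided by 1 constant per array (2406 for the wild type, 2273 for the knockout). Its medians were 0.0946 and 0.0969, and it is not centred by gene.

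Control spots and 234 outlier spots were left out, and spots of a probe were averaged as log2 values, leaving 39422 probes. The 75th percentile of each array was subtracted. A gene was read from its brightest probe well above background in both pools, which gave 22013 genes. All 36 members are named. Of other pathway genes, those 1.5-fold apart or at the ends of their list are named, with others picked after their values were seen. Members and lists were chosen with earlier results of these data known. The scaling and counting were tested on simulated data. Values under normexp came from limma 3.58.1 in R 4.3.3, and the rest from Python 3.11.15 with pandas 2.3.3. Alternatives covered scaling, background correction, detrending, probe choice, dim probes, outlier spots, gene names, the deposited table and the size called.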

Additional observations from a re-analysis of the deposited data

How the results depend on the processing

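No paired analysis was possible because each genotype had 1 array. Over the 12 alternatives planned and the 1 added, the median over the members ran from -0.15 to -0.07 log2 and that over the ligands from -0.47 to -0.42. Under normexp, 2 members (Wnt11 and Fzd5) were at least 1.5-fold lower, as were 1 other pathway gene and 463 of all genes. On the higher side were 2 other pathway genes and 920 of all genes. Above the median signal were 26 members and 11006 of all genes. Among these, 2 members (Wnt5a and Wnt11) and 1 other pathway gene (Msx2) were lower and 1 other pathway gene (Sox17) was higher. Rspo2 and Sost were too dim to be counted there. Of the 11006 genes, 271 were lower and 452 higher. At 2-fold, 0 members and 1 other pathway gene were lower, with 320 of all genes lower and 479 higher. Sost and Sox17 were the other pathway genes at least 2-fold higher. With a call beyond 1.96 scanner errors, a rule added after seeing the data, 8 members were lower and 1 higher. Of the other pathway genes 7 were lower and 2 higher, and of all genes 1808 were lower and 2461 higher. Wnt5a also fell short of 1.5-fold without detrending, and Fzd5 with the mean of its probes. Of 376 values of single members, 373 moved by less than the scanner error and none of the 4 members called changed sign. Several alternatives changed only which genes were kept or named, or shifted all genes by the same small amount. Under those the values of members could hardly move. Signals close to background, as for Sost, Rspo4, Wnt3a, Wnt2b and Wnt9b, limit what the arrays can show.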
